A study of Aphis gossypii with 6 samples.

Results

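Splicing machinery genes of the cotton aphid, Aphis gossypii, were compared between 2 strains, of which one withstands beta-cypermethrin, a pyrethroid insecticide, and the other is susceptible. They were chosen by the product text of the table alone, as genes described as splicing factor, small nuclear ribonucleoprotein, pre-mRNA-splicing, pre-mRNA-processing, U6 snRNA-associated or heterogeneous nuclear ribonucleoprotein. This gave 101 of 14013 listed genes. The text rule uses no measured value, but it was set with earlier results of these data known. The resistant group (RGL) comes from a highly resistant population of a Chinese wolfberry field, and the susceptible group (SGL) is labelled wild type. Each strain has 3 libraries of RNA from pooled whole bodies, sequenced without exposure to the insecticide. Neither the age nor the body form of the aphids is given in those labels. Each condition is a single strain, so resistance and other differences between the strains cannot be told apart. Whether the 3 libraries of a strain stem from separate cultures is not stated, so the p-values cover only how far these libraries spread, and that spread may be technical.

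Most messenger RNAs of animals are copied from genes as longer precursors, and introns are cut out of them in the nucleus by the spliceosome. It is built on each intron from small nuclear ribonucleoproteins (snRNPs). U1 recognises the start of the intron and U2 its branch point. The U4/U6.U5 tri-snRNP then joins, RNA helicases remodel the assembly, and U2, U5 and U6 with the Prp19 complex form the active centre. Serine/arginine-rich (SR) proteins and heterogeneous nuclear ribonucleoproteins (hnRNPs) bind exons and introns and affect which splice sites are used.

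The libraries held 31290134 to 46681719 counts in the resistant strain and 31653431 to 36110420 in the susceptible strain. Resistant replicate 1 stood apart. It differed over 2-fold from resistant replicates 2 and 3 in 624 and 875 genes, of which 0 and 2 were splicing genes. Resistant replicates 2 and 3 differed over 2-fold in 205 genes, of which 1 was a splicing gene. Whole bodies hold all tissues, and in live-bearing aphids also embryos. Cuticle protein genes summed to 16960 to 30120 CPM in the resistant libraries and 12630 to 13100 CPM in the susceptible ones, and 28 of 48 tested were higher and 3 lower. Of 14 germline and embryo genes 1 was higher, of 21 cell division genes 2 were higher, of 20 muscle genes 6 were higher and 6 lower, and of 15 nerve genes 3 were higher and 3 lower. Called in either direction were 64.6% of the cuticle, 7.14% of the germline and embryo and 9.52% of the cell division genes. Of the muscle genes 60% were called, and of the nerve genes 40%. Of all tested genes 35.8% were called, 21.4% higher and 14.4% lower. The counts in these lists moved with single libraries. Without resistant replicate 1, 12 cell division genes (57.1%) and 4 germline and embryo genes (28.6%) were higher, beside 28.6% of all genes. With any other library left out 1 and 0 were, beside 14.1% to 21.8% of all genes. With any one susceptible replicate left out 3 muscle genes were higher and 3 to 4 lower. In the same fits 19 to 20 cuticle genes were higher and 1 lower. Of all genes, 14.1% to 14.9% were higher there and 6.96% to 7.22% lower. Of 48 tested cuticle protein genes, 44 were highest in resistant replicate 1 among the resistant libraries. Of 21 cell division genes, 17 were lowest there, as were 10 of 14 germline and embryo genes. Of all tested genes, 42.0% were highest and 45.0% lowest in that library among the resistant ones. The part of these markers in the splicing results was not tested. In bulk RNA, fewer cells of a type and less RNA per cell cannot be told apart.

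Splicing genes differed by less than 2-fold between the strains. Of the 101 genes, 92 had enough counts to be tested. In the resistant strain 10 were higher and 13 were lower (edgeR's quasi-likelihood test, with the Benjamini-Hochberg adjusted p over all tested genes under 0.05), so 25% were called, beside 35.8% of all 11149 tested genes. Higher calls made up 10.9% of the splicing genes and 21.4% of all genes. Lower calls made up 14.1% of the splicing genes and 14.4% of all genes. None of the 92 was called with a 2-fold change, while 8.31% of all tested genes were called higher by 2-fold or more and 1.96% lower by as much. The median log2 fold change, resistant over susceptible, was -0.09, with a range of -0.94 to 0.96. The median over all tested genes was 0.00, from -0.31 at the lower to 0.38 at the upper quartile. The size of the change was under 0.5 on the log2 scale in 77 of 92 splicing genes (83.7%) and in 66.8% of all tested genes. Splicing genes were more abundant than the average gene, with a median of 27.7 FPKM (fragments scaled for gene length and library depth) over all 6 libraries, beside 9.47 FPKM over all listed genes. In simulated data for this comparison, 24.6% of 65 genes with a log2 change of 0.5 were found, and 81.8% of 66 with a change of 1. There 200 of 11080 genes were changed and 135 were called, while the real fit called 3994 of 11149. The adjusted p depends on how many genes change, so these shares cannot be carried over to the real fit. Of the 23 called splicing genes, 11 had a change under 0.5.

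**Figure D1:**
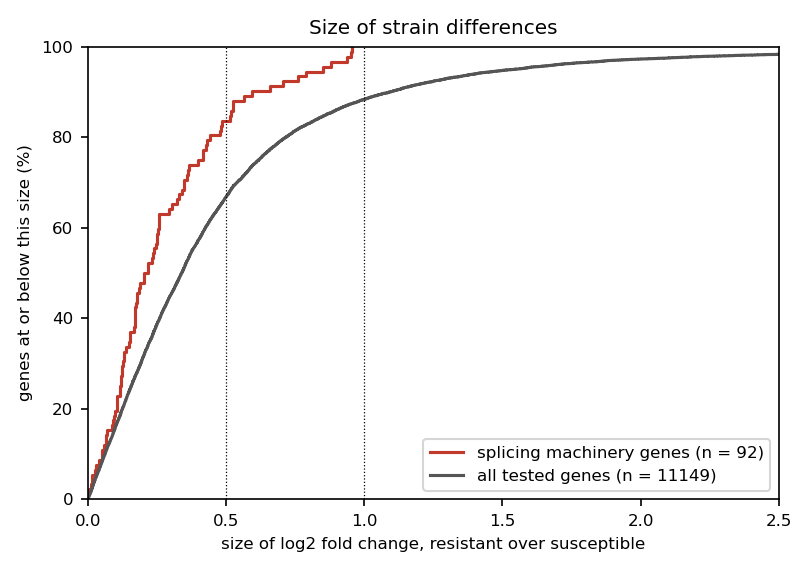
Share of genes (percent, y axis) whose log2 fold change between the strains is at or below the size on the x axis, for 92 tested splicing genes and all 11149 tested genes. The line of the splicing genes reaches 83.7% at 0.5 and its last gene lies at 0.96, while 66.8% of all genes lie under 0.5.

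For 46 splicing genes the resistant libraries lay wholly above or wholly below the susceptible ones. In 19 of these (20.7% of 92) the resistant libraries were the higher ones, beside 28.2% of all tested genes, and in 27 (29.3%) they were the lower ones, beside 25.8%. All 23 called genes were among these 46. The number of calls rested on single libraries. Without resistant replicate 1, 17 splicing genes were higher and 29 lower, 48.9% of 94 tested, beside 53.5% of all genes in the same fit. By direction, 18.1% of the splicing genes were higher there, beside 28.6% of all genes, and 30.9% were lower, beside 24.9%. The 23 genes called with all libraries kept their calls there, and 0 of the 46 calls reached 2-fold. Without susceptible replicate 1, 2 or 3 the higher calls were 3, 4 and 1, and the lower calls 8, 8 and 11. In these fits 1.08% to 4.26% of the splicing genes were higher, beside 14.1% to 14.9% of all genes, and 8.51% to 11.8% were lower, beside 6.96% to 7.22%. Scaling by library totals only shifted the all-gene median by -0.15 (log2), and then 7 splicing genes were higher (7.61%, beside 15.8% of all genes) and 25 lower (27.2%, beside 20.8%). The share of lower calls was thus close to that of all genes with all libraries and the first scaling, and above it in these other fits. Of the 23 calls, 9 passed in all 13 other fits (another scaling, test or filter, a block, or 1 library left out). These were 8 lower genes, for U11/U12-48K, fl(2)d, Prp39, Prp38B, hfp, ESS-2, U2-A' and U2AF50, and 1 higher gene, a second copy of Prp39.

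**Figure D2:**
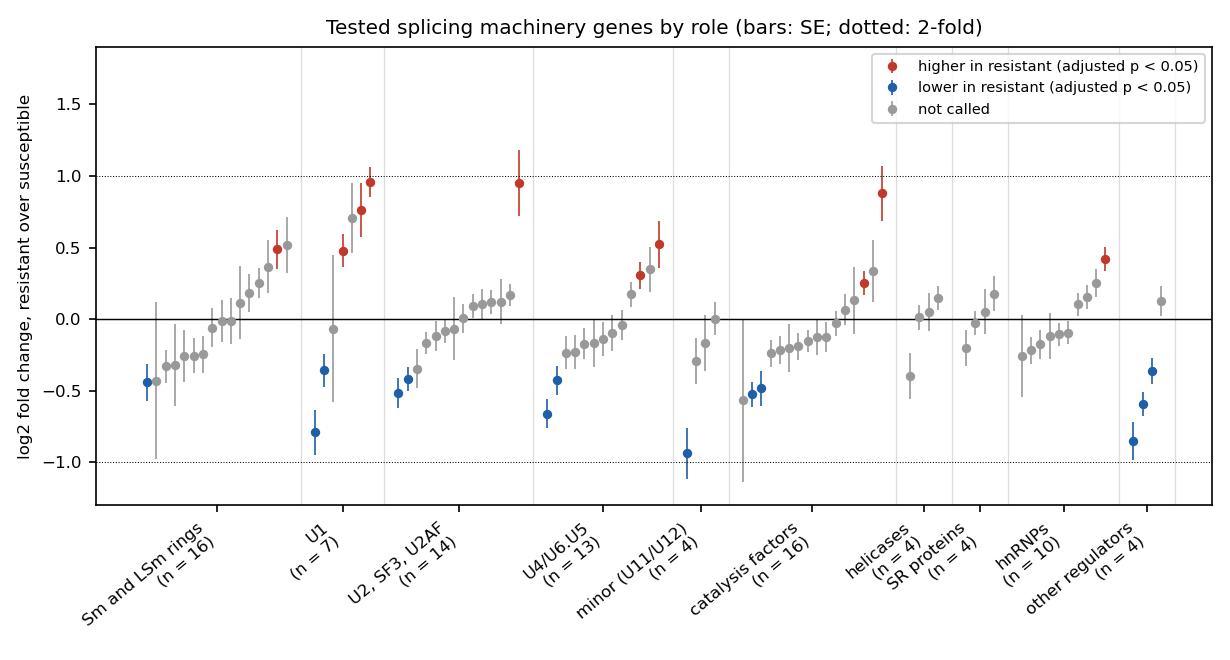
Log2 fold change, resistant over susceptible (y axis), of each of the 92 tested splicing genes, ordered by size within 10 roles. Points are single genes, bars are standard errors, and colour marks the 10 genes called higher, the 13 called lower and the 69 not called. All points lie between the dotted 2-fold lines.

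The Sm and LSm proteins form the rings that hold the snRNAs, Sm proteins on U1, U2, U4 and U5 and LSm proteins on U6. Of 18 genes, 16 were tested, 1 was higher and 1 lower, and the median log2 fold change was -0.04. Thus 12.5% were called, beside 35.8% of all tested genes. Sm B was higher, with 147, 103 and 107 CPM (counts scaled to a common library size) in resistant replicates 1 to 3 and 87.6, 83.8 and 83.4 CPM in susceptible replicates 1 to 3. The strains did not overlap, and resistant replicate 1 was the highest library (log2 fold change 0.49 ± 0.14, SE, edgeR adjusted p = 0.0258). Sm F was lower, with 41.7, 43.2 and 53.5 CPM in resistant libraries and 69.3, 61.7 and 57.0 CPM in susceptible ones. Its change was -0.44 ± 0.13 (edgeR adjusted p = 0.0267), again with no overlap between the strains. Both calls were lost without single libraries. Over the 13 other fits the edgeR, DESeq2 or limma adjusted p of Sm B ran from 0.000398 to 0.106, over 0.05 without susceptible replicate 1, 2 or 3. That of Sm F ran from 0.00319 to 0.117, over 0.05 without resistant replicate 2 and without susceptible replicates 1 or 2, and it was 0.0513 with the replicate block. With resistant replicate 1 left out, this role had 2 higher and 3 lower genes (31.2% called, beside 53.5% of all genes).

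Per length, and summed over copies of the same name, Sm D1 was the most abundant ring protein transcript, with 161 ± 24.6 FPKM in the resistant strain and 173 ± 5.33 FPKM in the susceptible strain (mean ± SD, n = 3 each). In the resistant strain Sm D2, Sm D3, Sm B and Sm F followed, at 80.4 ± 11.1, 75.2 ± 6.95, 72.9 ± 7.53 and 60.5 ± 12.9 FPKM, and neighbours in this order did not differ beyond their spread. In the susceptible strain the order was Sm D2, Sm F, Sm D3 and Sm B, at 95.7 ± 11.9, 89.5 ± 8.30, 73.3 ± 1.49 and 57.7 ± 1.52 FPKM. There Sm D2 and Sm F did not differ beyond their spread. Sm E was much lower, at 21.7 ± 6.67 FPKM in the resistant strain and 28.2 ± 2.72 FPKM in the susceptible strain. The U6 ring proteins LSm2, LSm4, LSm5, LSm6, LSm7 and LSm8 ranged from 14.6 to 41.9 FPKM in the resistant strain and from 14.0 to 54.7 FPKM in the susceptible strain. LSm7 was the highest of them in both strains. In the resistant strain LSm5, LSm6 and LSm8, at 21.4 ± 2.21, 18.4 ± 5.44 and 18.5 ± 7.05 FPKM (SD, n = 3), did not differ beyond their spread. Sm G, a part of every Sm ring, has 2 loci in the table, LOC114127726 and LOC114127727. They had 2 and 22 counts in all 6 libraries together and were not tested.

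The U1 role holds the proteins of the U1 snRNP together with Prp39 and Prp40. Of 9 genes 7 were tested, and 5 of these were called, 3 higher and 2 lower, with a median log2 fold change of 0.48. The share called was 71.4%, beside 35.8% of all tested genes. Of the calls, 3 were Prp39 and Prp40 genes, and 2 were U1-A and a U1-C gene. U1-A, the protein that binds a hairpin of U1 RNA, was at 119, 93.5 and 90.9 CPM in resistant libraries and 74.0, 73.1 and 70.4 CPM in susceptible libraries. It rose by 0.48 ± 0.12 on the log2 scale (edgeR adjusted p = 0.0134) and was the most abundant gene of the role per length, at 78.5 FPKM over all libraries. U1-C, which steadies the pairing of U1 with the intron start, has 2 genes. LOC114124852 had 26.3, 18.5 and 17.5 CPM in resistant and 12.3, 13.9 and 10.6 CPM in susceptible libraries and rose by 0.76 ± 0.19 (edgeR adjusted p = 0.0156). The more abundant LOC114129193 had 117, 60.4 and 60.3 CPM in resistant and 50.1, 47.9 and 47.3 CPM in susceptible libraries. Its libraries did not overlap either, and its change of 0.71 ± 0.24 did not pass (edgeR adjusted p = 0.0528). Without resistant replicate 1 its change was 0.32 ± 0.07 and it passed (edgeR adjusted p = 0.00106). In U1-A and both U1-C genes resistant replicate 1 was the highest of all 6 libraries.

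Another protein of the U1 snRNP, U1-70K, is named in the text of a single gene of the set, LOC114122691. That gene had 3 counts, all in susceptible replicate 3. A further gene, LOC114128118, falls outside the rule because its main description is a hypothetical protein, but its Swiss-Prot match is the U1 70 kDa protein of Drosophila. It was singled out after its values were seen. It was far more abundant, at 460 FPKM, and lower in the resistant strain, with 758, 561 and 517 CPM in resistant libraries and 936, 933 and 933 CPM in susceptible ones. The change was -0.61 ± 0.15 (edgeR adjusted p = 0.0129). Resistant replicate 1 lay nearest the susceptible libraries. Its adjusted p ran from 1.29e-09 to 0.0566 over the 13 other fits, and was over 0.05 without resistant replicate 2 and without susceptible replicate 1, 2 or 3.

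Prp39 and Prp40 are U1 proteins in yeast and splicing factors in animals. Prp39 has 4 genes here, and the 2 that are well expressed differed in opposite directions. LOC114131147 had 38, 36.0 and 39.3 CPM in resistant libraries and 18.9, 19.0 and 20.5 CPM in susceptible libraries. It rose by 0.96 ± 0.10 on the log2 scale, 1.94-fold (edgeR adjusted p = 0.000282), the greatest change of any splicing gene. The 3 resistant libraries were close to each other here, resistant replicate 1 included. LOC114127982 had 49.3, 72.0 and 75.1 CPM in resistant and 123, 107 and 111 CPM in susceptible libraries and fell by 0.79 ± 0.16 (edgeR adjusted p = 0.00567). Of the FPKM summed over all Prp39 genes, LOC114131147 held 33.3% ± 5.36 in the resistant strain and 12.7% ± 1.05 in the susceptible strain (SD, n = 3 each). Of the other Prp39 genes, LOC114131145 had no count and LOC114126489 was at 0.120 FPKM. Both called genes passed in all 13 other fits. Prp40, LOC114124849, was lower, with 98.2, 133 and 122 CPM in resistant and 160, 147 and 145 CPM in susceptible libraries (-0.36 ± 0.12, edgeR adjusted p = 0.0445).

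The remaining U1 calls were less stable. Prp40 had an adjusted p of 0.00323 to 0.158 over the 13 other fits (edgeR, DESeq2 and limma). It was over 0.05 without resistant replicate 3, without susceptible replicate 1, 2 or 3 and, at 0.0638, with the replicate block. U1-A was over 0.05 without susceptible replicate 1, 2 or 3 (range 0.000148 to 0.0742). The U1-C gene LOC114124852 was over 0.05 without susceptible replicates 1 or 3 (range 0.00108 to 0.0777). Without susceptible replicates 1, 2 and 3 the role had 1, 2 and 1 higher and 1, 1 and 1 lower genes. Thus 28.6% to 42.9% were called there, beside 21.0% to 22.0% of all genes. Without resistant replicate 3 it had 4 higher and 1 lower (71.4%, beside 37.0% of all genes).

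**Figure D3:**
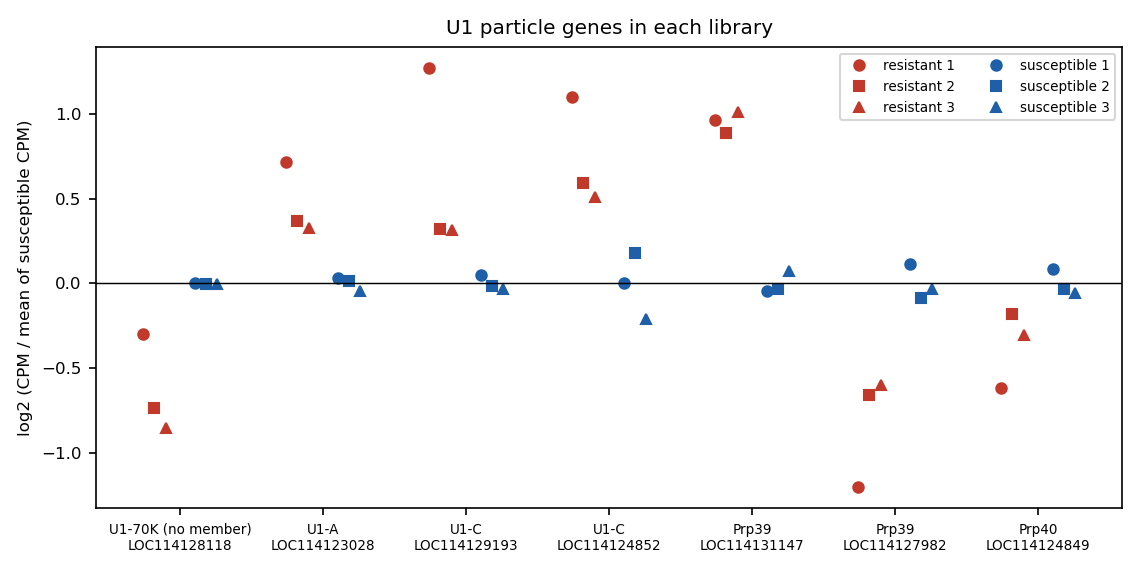
U1 genes in each library, as log2 of the CPM over the mean CPM of the susceptible libraries (y axis), with resistant libraries left and susceptible libraries right for each gene. U1-A, both U1-C genes and the Prp39 gene LOC114131147 lie above the line in all resistant libraries, while the Swiss-Prot match to U1-70K, the Prp39 gene LOC114127982 and Prp40 lie below it. Resistant replicate 1 is the extreme library in 5 of the 7 genes.

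Genes of U2 and of the proteins that mark the intron end had few calls. Of 15 genes 14 were tested, 1 was higher and 2 lower, and the median log2 fold change was -0.03. Thus 21.4% were called, beside 35.8% of all tested genes. Of the 8 tested SF3A and SF3B genes other than SF3B5, which hold U2 on the branch point, 0 were called, and their changes ran from -0.17 to 0.17. SF3A1 was called higher without resistant replicate 1 (0.16 ± 0.06, edgeR adjusted p = 0.0353). SF3B5, a small subunit of SF3B, had 24.7, 16.5 and 12.8 CPM in resistant and 9.54, 9.35 and 8.95 CPM in susceptible libraries and rose by 0.95 ± 0.23 (edgeR adjusted p = 0.0139). The resistant libraries spread widely, and its adjusted p ran from 0.000475 to 0.0645 over the 13 other fits, over 0.05 without susceptible replicate 1, 2 or 3. U2-A', a protein specific to the U2 snRNP, had 52.3, 65.4 and 62.5 CPM in resistant and 89.1, 84.4 and 84.5 CPM in susceptible libraries and fell by 0.52 ± 0.10 (edgeR adjusted p = 0.00589).

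U2AF binds the pyrimidine-rich stretch and the end of the intron. Its large subunit, U2AF50, has 3 genes, of which LOC114129341 had no count. LOC114126719 had 90.5, 82.0 and 78.2 CPM in resistant and 111, 113 and 111 CPM in susceptible libraries and fell by 0.42 ± 0.09 (edgeR adjusted p = 0.0065). The copy LOC114125884 was at 100, 91.6 and 87.6 CPM in resistant and 84.5, 88.6 and 84.2 CPM in susceptible libraries, and the strains overlapped (0.12 ± 0.09, edgeR adjusted p = 0.308). LOC114126719 held 46.7% ± 0.144 of the summed FPKM of these genes in the resistant strain and 56.0% ± 0.487 in the susceptible strain (SD, n = 3 each). The small subunit U2AF38 was not called (-0.12 ± 0.10, edgeR adjusted p = 0.407), but was lower without resistant replicate 1 (-0.20 ± 0.07, edgeR adjusted p = 0.0259). SF1, which binds the branch point before U2 does, had the highest level of the role per length, 90.5 FPKM. It had 223, 166 and 156 CPM in resistant and 224, 242 and 225 CPM in susceptible libraries, and resistant replicate 1 lay beside the susceptible libraries. Its change of -0.35 ± 0.14 did not pass (edgeR adjusted p = 0.0805). With resistant replicate 1 left out, the change was -0.52 ± 0.06 and passed (edgeR adjusted p = 6.06e-07). Without that library the role had 2 higher and 4 lower genes (42.9% called, beside 53.5% of all genes). Without susceptible replicates 1, 2 or 3 it had 0 higher and 2 lower (14.3% called, beside 21.0% to 22.0% of all genes).

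All 13 genes of the U4/U6.U5 tri-snRNP and its partners were tested, and 2 were higher and 2 lower. The share called was 30.8%, beside 35.8% of all tested genes, and the median log2 fold change was -0.14. Prp38B, named after a yeast tri-snRNP protein, had 54.3, 64.0 and 66.2 CPM in resistant and 96.5, 101 and 94.5 CPM in susceptible libraries and fell by 0.66 ± 0.10 (edgeR adjusted p = 0.00148). Its namesake Prp38A was not called (-0.23 ± 0.12, edgeR adjusted p = 0.15), but passed without resistant replicate 1 (-0.28 ± 0.11, edgeR adjusted p = 0.034). Prp31, which bridges U4 and U5 proteins, has 2 genes. LOC114124263 was lower, with 61.3, 57.7 and 58.7 CPM in resistant and 87.7, 80.7 and 70.7 CPM in susceptible libraries (-0.43 ± 0.10, edgeR adjusted p = 0.0121). LOC114122917 overlapped between the strains (-0.17 ± 0.16, edgeR adjusted p = 0.445).

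Prp8, the protein at the centre of the spliceosome, also has 2 genes. LOC114124415 was higher, with 141, 211 and 226 CPM in resistant and 129, 134 and 139 CPM in susceptible libraries (0.52 ± 0.16, edgeR adjusted p = 0.0372), and resistant replicate 1 was close to the susceptible libraries. LOC114122214, whose product is described as partial, was the most abundant gene of the role per length at 75.9 FPKM. It was at 149, 110 and 121 CPM in resistant and 125, 150 and 131 CPM in susceptible libraries, and was not called (-0.10 ± 0.13, edgeR adjusted p = 0.579). Resistant replicate 1 was its highest resistant library, and without it the gene was lower (-0.23 ± 0.07, edgeR adjusted p = 0.0149). U5-40K, a WD repeat protein of U5, was higher in LOC114121722, with 43.2, 43.9 and 40.4 CPM in resistant and 33.2, 34.5 and 35.5 CPM in susceptible libraries (0.30 ± 0.09, edgeR adjusted p = 0.033). Its copy LOC114121725 had 18.6, 16.4 and 16.9 CPM in resistant and 19.8, 19.5 and 21.6 CPM in susceptible libraries, with no overlap, and was not called (-0.23 ± 0.12, edgeR adjusted p = 0.159, and 0.0326 without resistant replicate 1). The U5 helicase that unwinds U4 from U6, LOC114124140, was at 23.6 FPKM and had a change of -0.04 ± 0.11 (edgeR adjusted p = 0.787).

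Both higher calls of the tri-snRNP role were lost with libraries scaled by totals alone, at adjusted p of 0.171 for Prp8 and 0.297 for U5-40K. Those of Prp8 ran from 8.5e-09 to 0.171 over the 13 other fits, over 0.05 also without resistant replicates 2 or 3 and without susceptible replicate 1, 2 or 3. Those of U5-40K ran from 0.00612 to 0.297, over 0.05 also without resistant replicate 2, without susceptible replicate 1, 2 or 3 and, at 0.0903, with the replicate block. The Prp31 call was lost without susceptible replicates 1 or 2 (range 0.000114 to 0.0649). Without resistant replicate 1 the role had 3 higher and 5 lower genes (61.5% called, beside 53.5% of all genes).

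A few introns are removed by a minor spliceosome that uses U11 and U12 in place of U1 and U2. Of its 4 genes, all tested, 1 was lower and 0 were higher. Thus 25% were called lower, beside 14.4% of all tested genes, of which 35.8% were called in either direction. U11/U12-48K, which in human cells contacts the start of these introns, had 19.7, 29.6 and 32.9 CPM in resistant and 54.4, 50.3 and 53.1 CPM in susceptible libraries. It fell by 0.94 ± 0.18 on the log2 scale and was 47.8% lower in the resistant strain, the greatest decrease of any called splicing gene (edgeR adjusted p = 0.00433). The strains did not overlap. Of the 6 libraries, resistant replicate 1 was the lowest. The other U11/U12 proteins were not called, with changes of -0.17 ± 0.20 for the 25 kDa and 0.00 ± 0.11 for the 35 kDa protein. The U2AF35-related protein 2, which acts at the intron end, was at -0.29 ± 0.16 (edgeR adjusted p = 0.187). With resistant replicate 1 left out, the 25 kDa protein was also lower (-0.37 ± 0.15, edgeR adjusted p = 0.0406). That fit called 50% of these 4 genes and 53.5% of all genes.

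**Figure D4:**
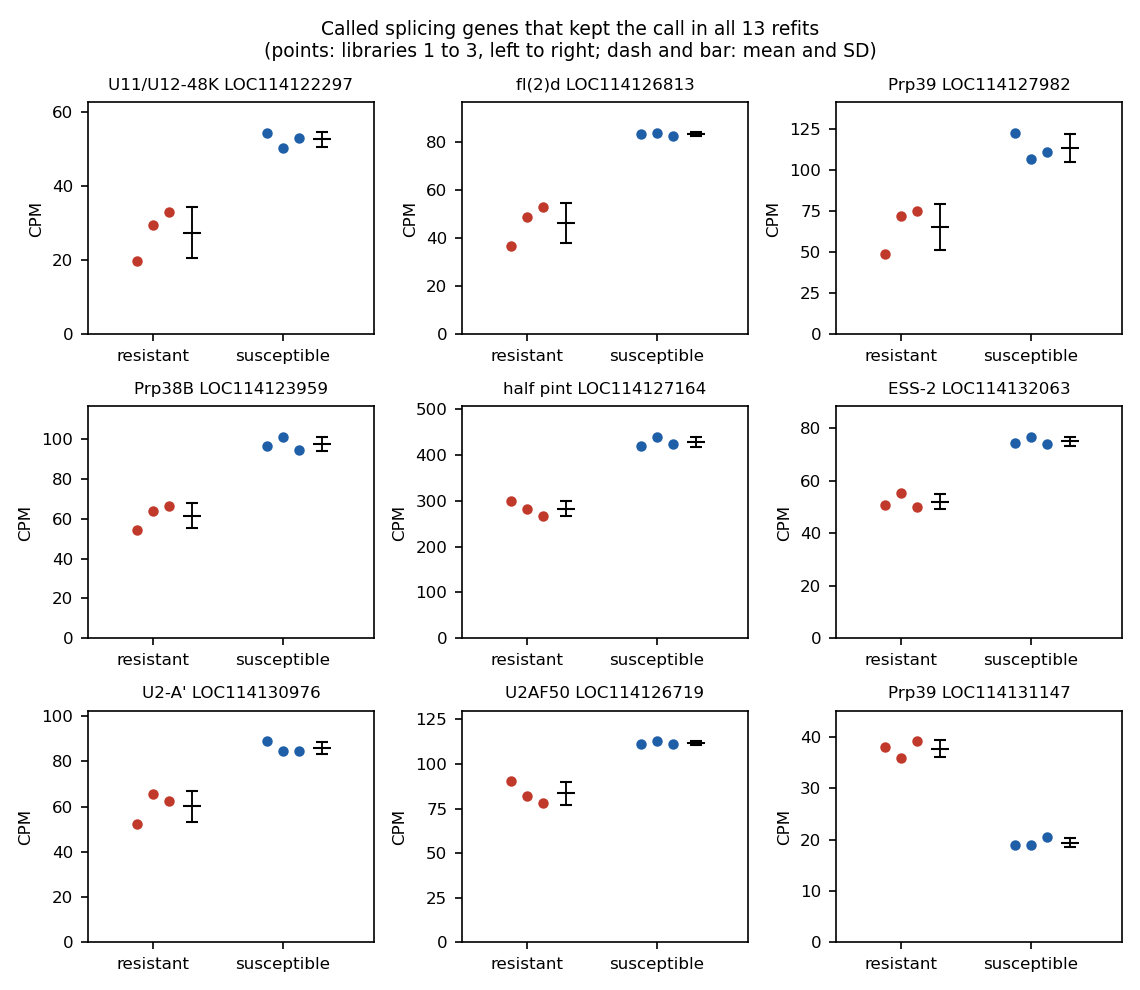
CPM (y axis, from 0) in each library of the 9 splicing genes that were called in all 13 other fits, with resistant libraries left and susceptible libraries right, and mean and SD beside them (n = 3 each). In 8 genes all resistant libraries lie below the susceptible ones, and in the Prp39 gene LOC114131147 all lie above.

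Factors of activation and catalysis, among them the Prp19 complex and the proteins of both cutting steps, had 19 genes. Of the 16 tested, 2 were higher and 2 lower (25% called, beside 35.8% of all genes), with a median log2 fold change of -0.14. ESS-2, a protein of late spliceosomes, had 50.8, 55.5 and 50 CPM in resistant and 74.3, 76.8 and 73.9 CPM in susceptible libraries and fell by 0.52 ± 0.09 (edgeR adjusted p = 0.00224). CWC22, which loads the exon junction complex, has 5 genes, and the most abundant, LOC114119603, was lower. It had 143, 193 and 191 CPM in resistant and 258, 238 and 239 CPM in susceptible libraries (-0.48 ± 0.12, edgeR adjusted p = 0.0169). Of the others, LOC114127769 was not called (-0.20 ± 0.17, edgeR adjusted p = 0.371), and LOC114127527, LOC114127535 and LOC114127543 were each under 0.3 FPKM.

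SPF27, a core subunit of the Prp19 complex, has 2 genes. LOC114127130 had 15.1, 11.5 and 9.93 CPM in resistant and 7.22, 6.63 and 5.96 CPM in susceptible libraries and rose by 0.88 ± 0.19 (edgeR adjusted p = 0.00865). Its copy LOC114127139 had 7.08, 5.03 and 4.72 CPM in resistant and 4.84, 4.63 and 3.77 CPM in susceptible libraries, which overlapped (0.34 ± 0.22, edgeR adjusted p = 0.253). LOC114127130 held 67.1% ± 0.979 of their summed FPKM in the resistant strain and 58.5% ± 1.21 in the susceptible strain (SD, n = 3 each). Prp19 itself, a ubiquitin ligase, was higher by a small margin, with 167, 153 and 163 CPM in resistant and 129, 145 and 133 CPM in susceptible libraries (0.25 ± 0.08, edgeR adjusted p = 0.0473). ISY1, the most abundant gene of the role per length at 117 FPKM, was at 134, 125 and 124 CPM in resistant and 144, 143 and 140 CPM in susceptible libraries and was not called (-0.15 ± 0.08, edgeR adjusted p = 0.151, and 0.00919 without resistant replicate 1).

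The call of Prp19 was the least stable of all, lost in 9 of 13 other fits (adjusted p 0.00634 to 0.406). It was lost with DESeq2 size factors (0.0558), library totals alone (0.406), no low-count filter (0.0543), the replicate block (0.106), and without each library in turn other than resistant replicate 1. CWC22 was over 0.05 without susceptible replicate 1, 2 or 3 (range 4.14e-05 to 0.0745), and SPF27 without susceptible replicate 3 (range 0.000201 to 0.0519). Without resistant replicate 1 the role had 3 higher and 6 lower genes (50% called, beside 53.5% of all genes). With library totals alone it had 1 higher and 6 lower (43.8%, beside 36.6%).

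Of the 4 spliceosomal helicases, 4 SR proteins and 11 hnRNPs, 18 were tested and 1 was called. The share called was 0% of the helicases and SR proteins and 10% of the tested hnRNPs, beside 35.8% of all tested genes. The helicases PRP16, DHX16 and the ddx-15 match LOC114119102 had changes of 0.01 ± 0.09, 0.05 ± 0.13 and 0.15 ± 0.09, and LOC114119102 had the highest level, 36.6 FPKM. It was at 107, 104 and 116 CPM in resistant and 94.0, 104 and 96.5 CPM in susceptible libraries (edgeR adjusted p = 0.205). PRP5, which acts when U2 joins, was at 33.6, 50 and 52.6 CPM in resistant and 61.1, 57.6 and 60.9 CPM in susceptible libraries (-0.40 ± 0.16, edgeR adjusted p = 0.0887). The strains did not overlap, and without resistant replicate 1, the lowest library, it passed at -0.22 ± 0.07 (edgeR adjusted p = 0.0143).

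The SR proteins had changes of -0.20 to 0.18 between the strains, and 0 passed with all libraries. All 4 were highest in resistant replicate 1 among the resistant libraries, as were 42.0% of all tested genes. They lay there by a median of 0.41 on the log2 scale over resistant replicates 2 and 3. The most abundant, LOC114126459, at 150 FPKM, had 215, 163 and 157 CPM in resistant and 203, 208 and 204 CPM in susceptible libraries (-0.20 ± 0.12, edgeR adjusted p = 0.234). With resistant replicate 1 left out, it was lower (-0.36 ± 0.06, edgeR adjusted p = 2.5e-05), and with library totals alone it was also called lower (-0.36, edgeR adjusted p = 0.0126). In the same library the cuticle genes lay 0.74 above and the cell division genes 0.26 below the other resistant libraries (median log2 CPM differences of 0.74 and -0.26).

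The hnRNPs coat new transcripts, and hnRNP K was the most abundant splicing gene per length, at 242 FPKM. It had 498, 420 and 439 CPM in resistant and 403, 372 and 366 CPM in susceptible libraries, with no overlap, and did not pass (0.25 ± 0.10, edgeR adjusted p = 0.0794, and 0.0176 without resistant replicate 1). hnRNP 27C, known in Drosophila as a splicing repressor and RNA localization protein, was the only hnRNP called. It had 312, 281 and 286 CPM in resistant and 232, 215 and 211 CPM in susceptible libraries and rose by 0.42 ± 0.08 (edgeR adjusted p = 0.006). Its call was lost without susceptible replicate 3 (0.0541, range 2.22e-05 to 0.0541 over the 13 other fits). The other 9 tested hnRNPs had changes of -0.26 to 0.25. One of them, described as hnRNP F-like, has the Drosophila splicing regulator fusilli as its Swiss-Prot match. Without resistant replicate 1, 3 hnRNPs were higher and 2 lower, and 1 SR protein and 1 helicase were lower. In that fit 53.5% of all genes were called.

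The last 4 genes were placed in no other role by their product text, which does not decide whether they belong to a particle. In the resistant strain 3 of them were lower and 0 higher (75% called, beside 35.8% of all tested genes). The protein fl(2)d, which in Drosophila is needed for sex-specific splicing and for adenosine methylation of messenger RNA, had 36.8, 48.7 and 52.8 CPM in resistant and 83.3, 83.7 and 82.3 CPM in susceptible libraries. It fell by 0.85 ± 0.13 (edgeR adjusted p = 0.00191), and resistant replicate 1 was the lowest library. The poly(U)-binding splicing factor LOC114127164, whose Drosophila counterpart hfp affects splice site use in the ovary, had 299, 282 and 267 CPM in resistant and 418, 439 and 423 CPM in susceptible libraries. It fell by 0.59 ± 0.08 (edgeR adjusted p = 0.00112) and, at 141 FPKM, was the most abundant of the 4. SPF30, related to the survival of motor neuron protein, was lower, with 56.8, 65.0 and 59.4 CPM in resistant and 77.4, 81.9 and 73.9 CPM in susceptible libraries (-0.36 ± 0.09, edgeR adjusted p = 0.016). Its adjusted p ran from 0.000963 to 0.0802 over the 13 other fits, over 0.05 without susceptible replicates 1 or 2. SPF45 was not called (0.13 ± 0.11, edgeR adjusted p = 0.366).

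**Figure D5:**
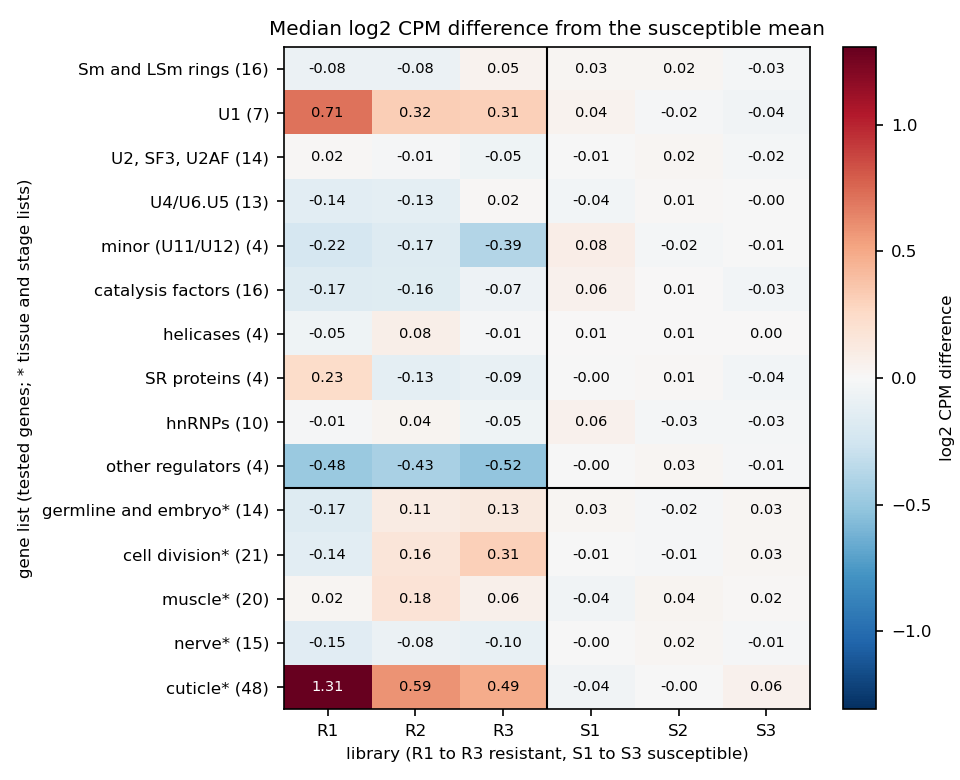
Median over the tested genes of each role (above the line) and of 5 tissue and stage lists (below it) of the log2 CPM difference from the mean of the susceptible libraries, for each library (columns). The 4 genes placed in no other role lie at -0.43 to -0.52 in the resistant libraries. The U1 median lies there at 0.31 to 0.71, with 3 of its 7 tested genes called higher and 2 lower. The median of the cuticle genes lies there at 0.49 to 1.31.

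Gene copies recurred through the set. By short name, 17 proteins had more than 1 gene, 40 genes in all. How the counting treated reads that match several copies is unknown here, so the values of single copies are uncertain. Of the 34 tested copies 5 were higher and 4 lower (26.5% called). Of the 58 tested genes with no copy 5 were higher and 9 lower (24.1%). Both shares stand beside 35.8% of all tested genes, with 21.4% higher and 14.4% lower. The 9 genes not tested had at most 22 counts in any library, and 2 of them had none. All but YJU2, U1-70K and the hnRNP A2/B1-like gene were copies of a name with another gene in the set.

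Genes of neighbouring steps that the text rule does not take were counted by list, beside the 35.8% of all tested genes called. Of 8 genes of the exon junction complex and nonsense-mediated decay, 1 was higher and 0 lower (12.5% called). The higher one was LOC114124991, a regulator of nonsense transcripts 1-like gene (0.70 ± 0.21, edgeR adjusted p = 0.0317), with 135, 80.4 and 76.8 CPM in resistant and 53.3, 61.8 and 64.4 CPM in susceptible libraries. The list had 0 calls without susceptible replicate 1, 2 or 3, and 3 higher genes without resistant replicate 1. Of 14 tested regulators of splice site choice, 3 were higher and 3 lower (42.9% called). Among them CUGBP Elav-like LOC114119224 rose by 0.74 ± 0.19 and ELAV-like LOC114124104 fell by 0.72 ± 0.24 (edgeR adjusted p = 0.0173 and 0.047). Of 3 SR protein kinases, which phosphorylate SR proteins, the CLK2-like LOC114127300 fell by 0.35 ± 0.08 (edgeR adjusted p = 0.0124), and the list had 0 lower genes without susceptible replicates 2 or 3. Of 13 tested genes of 3′ end processing, 1 was higher and 2 lower (23.1% called). The cleavage and polyadenylation factor subunit LOC114129984 rose by 0.88 ± 0.12 and poly(A) polymerase LOC114122210 fell by 0.62 ± 0.17 (edgeR adjusted p = 0.000991 and 0.0255). Of 5 snRNP assembly genes and 9 export genes 0 passed in edgeR with all libraries. DESeq2 called 1 higher and 1 lower assembly gene and 1 lower export gene. Without resistant replicate 1, edgeR called 1 higher and 1 lower gene in each list. Without resistant replicate 3, it called 1 lower gene in each. The regulators of splice site choice had 4 higher and 4 lower genes without resistant replicate 1, and 1 to 2 higher and 0 lower with any one susceptible replicate left out. Those of 3′ end processing had 2 higher and 4 lower genes without resistant replicate 1. With any one susceptible replicate left out they had 1 higher and 1 lower. Of all genes, 53.5% were called without resistant replicate 1, and 21.0% to 22.0% with any one susceptible replicate left out. The share of all genes was 37.0% without resistant replicate 3 and 41.6% with DESeq2.

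Of the genes that carry the KEGG spliceosome pathway, 83 are outside the text rule. Of 77 tested, 8 were higher and 10 lower (23.4% called, beside 35.8% of all tested genes). The median log2 fold change was -0.05. Among the called genes the greatest increase was in LOC114126422, a heat shock protein 70, which is a chaperone (0.68 ± 0.11, edgeR adjusted p = 0.00233). The greatest called decrease was in LOC114123232, a p62-like RNA helicase (-0.67 ± 0.12, edgeR adjusted p = 0.00334), at 5470 CPM in the resistant strain and 8680 CPM in the susceptible strain. This list was chosen after the table was opened. With resistant replicate 1 left out, it had 15 higher and 22 lower genes (48.1% called, beside 53.5% of all genes). With any one susceptible replicate left out it had 2 to 4 higher and 3 to 4 lower. Then 7.79% to 9.09% were called, beside 21.0% to 22.0% of all genes. With library totals alone it had 1 higher (1.3%, beside 15.8% of all genes) and 14 lower (18.2%, beside 20.8%).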

How the data were processed

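RNA from pooled whole bodies was sequenced as paired reads on a HiSeq 2500, per the labels' protocols. fastp 0.22.0 and HISAT2 are named in the submitters' processing notes. No label or header names the counting tool, annotation, genome build or strand setting, and no coordinates are printed. The deposited table holds raw read counts per gene and FPKM values by the authors, per the file headers. All 12 per-library value columns were mapped to samples, and 0 were left unused.

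Counts of all 14013 genes were tested with edgeR 4.0.16 (R 4.3.3): TMM scaling, filterByExpr (minimum count 10, total 15), the robust quasi-likelihood F test with strain alone, and Benjamini-Hochberg adjustment. Calls are at an adjusted p under 0.05. CPM are counts scaled to a common TMM-scaled library size. FPKM, the authors' values without this scaling, served for levels between genes and for shares of gene copies. Levels in FPKM are given for each strain, but their differences between the strains were not tested. Alternatives used DESeq2 1.42.0, limma 3.58.1, other scalings and filters, a replicate block, members from Swiss-Prot text and 1 library left out. Tables and plots were made in Python 3.11.15 with pandas 2.3.3 and matplotlib 3.10.9. On simulated counts for this comparison (11080 genes, 200 changed), 4 of 135 calls were false.

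The members and lists were chosen with earlier results of these data known. Roles came from the product text. Named with values in every library were, in each role, up to 2 called genes per direction with the greatest change that reached 5 CPM in either strain, and, in a role with no call, the gene with the highest FPKM. In every role the gene with the highest FPKM was also named. SPF30, the values of U1-A in every library, copies of the named genes and other genes not called were added after their values were seen. Of the 101 genes, 91 matched the RefSeq gene table (ASM2018417v2). The same number in both strains did not pair libraries. Within each strain every pair of libraries differed beyond counting noise (their chi-square statistic over genes, divided by its degrees of freedom, was 6.94 to 123), so each was counted as 1 sample, and the 3 libraries per strain limit the precision.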

Additional observations from a re-analysis of the deposited data

How the results depend on the processing

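Of 377 recomputed log2 changes of 29 named splicing genes, 320 kept their side of the threshold, 48 lost the call and 9 gained one. Among the genes called with all libraries, 0 changed sign. The Sm D1 gene LOC114125902, which was not called, did change sign in some fits. It went from -0.012 with all libraries to 0.119 once resistant replicate 3 was dropped. With library totals alone 25 splicing genes were lower (27.2%, beside 20.8% of all genes) and the median was -0.24. At an adjusted p under 0.01, 3 were higher and 8 lower. The share of all genes at that threshold is not given here. With members from Swiss-Prot text alone the median was -0.039 (76 tested). Leaving out 1 library gave 1 to 17 higher genes, 8 to 29 lower genes and medians of -0.103 to -0.067. Of all genes, 14.1% to 28.6% were higher and 6.96% to 24.9% lower in these fits. The counts of splicing genes were lowest without a susceptible library and highest without resistant replicate 1. There their median standard error was 0.0749, beside 0.117 with all libraries. The replicate block gave 9 higher and 11 lower genes (21.7% called, beside 30.7% of all genes) and a median of -0.09. Deviations of libraries with the same number correlated at -0.011, -0.03 and -0.015, so the numbers do not pair the libraries. DESeq2's Wald test called 12 higher and 16 lower, limma-voom 10 and 13. In the simulated data, where fewer genes changed than were called here, 24.6% of changes of 0.5 on the log2 scale were found. The cause of these shifts was not tested.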
